A study of Mus musculus with 10 samples.

Results

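The comparison set definitive neural stem cells against the passaged primitive neural stem cells from which they were made, in mouse cultures started from a single embryonic stem (ES) cell line. Its members were the 2 arrays labelled d-NSC and the 2 labelled p-NSC_LF, that is 4 of the 10 arrays of the series, and it was described across 19938 genes. Each value is a log2 intensity, the brightness of a gene's probe set on an Affymetrix gene array. Differences are d-NSC minus p-NSC_LF on that log2 scale, with the SE of limma after the ± sign and n = 2 arrays in each group. A gene is said to rise or fall in d-NSC where limma gave it an adjusted p below 0.05. The labels describe no separate cultures, so the 2 cultures of a group, where named below, mean its 2 arrays.

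The d-NSC cultures were spheres kept in serum-free medium with the supplements N2 and B27, EGF at 20 ng/ml, FGF at 20 ng/ml and heparin at 2 µg/ml, and no Lif is listed for them. The p-NSC_LF cultures were spheres in their secondary passage, with Lif at 1000 U/ml, FGF at 10 ng/ml and heparin at 2 µg/ml, and no EGF or B27 is listed. Both were derived from R1 ES cells, a line of 129/Sv origin, and spheres were taken apart and replated every 5 to 7 days. Lif removal, EGF, B27, the FGF dose and the added passages changed together, so their parts in any difference cannot be told apart, and the single parental line limits both groups as models. The other 6 arrays were 2 for each further group. Neural stem cells from the brain of E11.5 ICR embryos were kept in EGF, FGF and heparin (CNS-NSC). Primary primitive spheres were kept in Lif and N2 (p-NSC_L), and R1 ES cells on fibroblast feeders with 15% serum and Lif (ESC).

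Mouse ES cells that lose contact with serum in the presence of Lif can form spheres of primitive neural stem cells, which still depend on Lif and keep pluripotency genes on. Definitive neural stem cells instead need FGF or EGF, resemble the radial glia that line the embryonic neural tube, and divide to renew themselves or to give neurons and glia. Lif acts through a gp130 receptor complex, Jak kinases and Stat3, while FGF and EGF act through receptor tyrosine kinases and ERK.

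The labels were first set against marker genes. The 6 neural progenitor markers averaged 11.44 and 11.43 in the 2 d-NSC cultures, against 8.56 and 8.59 in the 2 p-NSC_LF cultures, and 5 of them rose, while Sox2, which ES cells share, fell by 0.35 ± 0.12, a call lost under 6 alternatives (adjusted p up to 0.233 by limma). The 6 naive ES cell markers averaged 9.28 and 9.23 in the 2 d-NSC cultures, against 12.31 and 12.24 in the 2 p-NSC_LF cultures, and all 6 fell. They averaged 7.26 and 7.31 on the 2 CNS-NSC arrays, so the d-NSC arrays lay between the p-NSC_LF and the CNS-NSC arrays for these genes. Pou5f1, the core pluripotency factor Oct4, had log2 levels of 11.15 and 10.94 in d-NSC, against 12.96 and 12.90 in p-NSC_LF, and its log2 level was 6.95 on the CNS-NSC arrays. In bulk RNA, fewer cells of a type and less RNA per cell cannot be told apart, so a lower level says nothing of how many cells carry the transcript.

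Markers of other cell types moved less. Of 7 fibroblast markers 5 rose and 1 fell, and their mean log2 level was 8.20 and 8.12 in the 2 d-NSC cultures, against 7.33 and 7.30 in the 2 p-NSC_LF cultures. Of 6 primitive endoderm markers 3 rose, with means of 8.02 and 8.07 in the 2 d-NSC cultures, against 7.52 and 7.54 in the 2 p-NSC_LF cultures. Of 6 neuron markers 5 rose and 1 fell, with means of 9.56 and 9.52 in the 2 d-NSC cultures, against 8.24 and 8.23 in the 2 p-NSC_LF cultures. Of 4 mesoderm markers measured 2 rose, and the means were 8.18 and 8.22 in the 2 d-NSC cultures, against 7.48 and 7.52 in the 2 p-NSC_LF cultures. The 4 neural crest markers had 1 rise and 2 falls. The 4 oligodendrocyte lineage markers had 1 rise, with means of 8.03 and 7.96 on the d-NSC arrays, against 7.18 and 7.31 on the p-NSC_LF arrays. Pdgfra, which is 1 of them, differed by 1.32 and was not called (adjusted p = 0.084 by limma). It was called in the fit of the 4 arrays alone and with weights on arrays (adjusted p = 7e-06 and 0.004 by limma). The 4 astroglia markers averaged 6.87 and 6.66 in the 2 d-NSC cultures, against 7.26 and 7.36 in the 2 p-NSC_LF cultures, with 1 fall and 2 of 4 below the arrays' lower quartile in each group. Both blood markers measured lay below the lower quartile in both groups and the 4 trophoblast markers had 1 rise. The part of such cells in the results below was not tested.

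Over the genes tested, the array medians lay between 7.99 and 8.13 and the lower quartiles between 6.67 and 6.83, and differences of genes below that quartile are uncertain in size. The 2 d-NSC arrays differed by at least 2-fold at 1 gene and the 2 p-NSC_LF arrays at 23. The labels give a replicate number and describe no separate cultures or derivations, so p-values measure the spread between these samples, which may be technical, and with so few arrays precision is low throughout.

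Of 19938 genes, 7706 (38.6%) were called, 3848 (19.3%) higher and 3858 (19.3%) lower in d-NSC. At least 2-fold changes among them numbered 2439 (12.2%), with 1379 (6.92%) rises and 1060 (5.32%) falls. The median difference of all genes was -0.01. These are the shares and the median against which the gene lists below are read. The groups did not overlap at 14474 genes (72.6%), so a gap between the groups is by itself the usual case here. Most genes named below were picked for large called differences, so their gaps follow from the choice and are no added support.

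**Figure D1:**
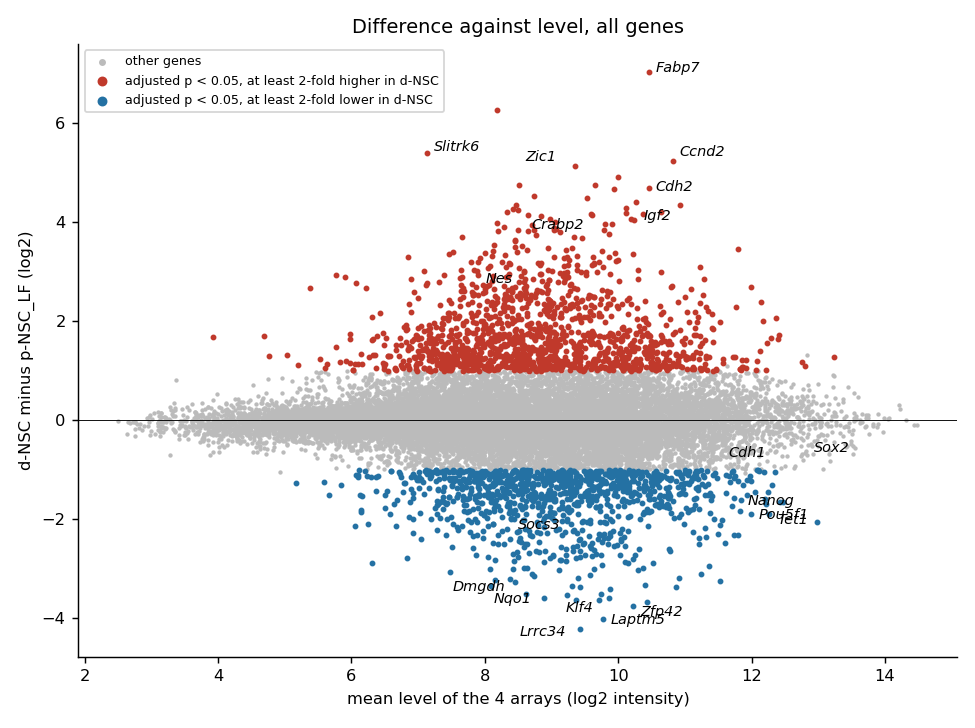
Difference in log2 intensity, d-NSC minus p-NSC_LF, of each gene against its mean log2 level over the 4 arrays, with the 1379 genes called and at least 2-fold higher in red and the 1060 at least 2-fold lower in blue. The unlabelled point above 6 is the noncoding gene Gm32061, and Fabp7 is the highest point.

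Fabp7, Slitrk6 and Ccnd2 were among the largest rises. Fabp7, which carries fatty acids in radial glia, had log2 levels of 13.95 and 14.02 in d-NSC, against 6.93 and 6.96 in p-NSC_LF. Slitrk6, a transmembrane protein of neurite growth, measured 9.78 and 9.88 in d-NSC, against 4.75 and 4.12 in p-NSC_LF, a rise of 5.39 ± 0.23. Ccnd2, the D-type cyclin of cycling neural progenitors, had 13.43 and 13.46 in d-NSC, against 8.04 and 8.36 in p-NSC_LF, and rose by 5.24 ± 0.16 (adjusted p = 2.5e-08 by limma). In each case the lower group sat near or below the array median and the groups were far apart. Fndc3c1 rose by 4.91 ± 0.17 and Parp8, a member of the ADP-ribosyltransferase family, by 4.76 ± 0.16. Igfbp5, which binds insulin-like growth factors, rose by 4.76 ± 0.24, and Nnat, an imprinted membrane protein of neural tissue, by 4.67 ± 0.21.

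Prtg (protogenin), a DCC-related receptor of the early neural tube, had log2 levels of 12.42 and 12.55 in d-NSC, against 8.15 and 7.98 in p-NSC_LF. Car4, a carbonic anhydrase anchored outside the cell, measured 13.11 and 13.11 in d-NSC, against 8.64 and 8.87 in p-NSC_LF, and Calcrl, the calcitonin receptor-like receptor, 10.63 and 10.65 in d-NSC, against 6.30 and 6.27 in p-NSC_LF. All 3 genes stood at least 4 log2 units higher in both d-NSC cultures. P3h2, a collagen prolyl hydroxylase, rose by 4.54 ± 0.31, Lgi1, a secreted neuronal protein, by 4.27 ± 0.14, and Serpinf1, a secreted serpin, by 4.17 ± 0.10. On the CNS-NSC arrays Prtg averaged 8.29 and Slitrk6 5.48.

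Among the largest falls were 3 naive pluripotency factors: Zfp42, also called Rex1, differed by -3.76 ± 0.16, the T-box factor Tbx3 by -3.68 ± 0.10 and the Krüppel-like factor Klf4 by -3.62 ± 0.10. Of 27 core and naive pluripotency factors 0 rose and 25 fell (median -2.24). Primed epiblast markers went the other way: 13 of 16 rose and 2 fell (median 1.89). The rises include Fgf5 at 2.29, and also Zic2, Zic5, Fgf15 and Dkk1, which are counted below in other lists. The falls were Foxd3 at -1.72 and Epha2 at -0.80. Lrrc34, a leucine-rich repeat protein of pluripotent cells, had log2 levels of 7.26 and 7.38 in d-NSC, against 11.45 and 11.62 in p-NSC_LF, a fall of 4.22 ± 0.24. Laptm5, a lysosomal membrane protein best known in blood cells, measured 7.79 and 7.76 in d-NSC, against 11.92 and 11.65 in p-NSC_LF, and Cd68, a lysosomal glycoprotein best known in macrophages, 7.80 and 7.68 in d-NSC, against 11.14 and 11.08 in p-NSC_LF. Of 9 microglia and blood genes 0 rose and 2 fell (median -0.07), namely Cd68 and the myeloid transcription factor Spi1, by 1.26 ± 0.10. The blood markers Ptprc and Csf1r, with means at or below the lower quartile in both groups, differed by 0.05 ± 0.17 and 0.15 ± 0.15 and were not called. Triml2, a tripartite-motif protein, fell by 3.59 ± 0.13, Trap1a, an X-linked antigen gene, by 3.64 ± 0.23, and Morc1, a germ cell ATPase, by 3.12 ± 0.13. Hspb1, a small heat shock protein, fell by 3.25 ± 0.12, Htra1, a secreted protease, by 3.28 ± 0.21, and Pdk4, a kinase that restrains pyruvate dehydrogenase, by 3.22 ± 0.30. Slc30a2, a zinc transporter, fell by 3.18 ± 0.12, and Gpa33, an epithelial surface antigen, by 3.19 ± 0.10.

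Fabp7 and Zfp42 mark the neural and the naive ES cell end of the comparison, and the 300 bases around their RefSeq starts are shown because both genes lay among the most changed. Each runs from 250 bases before to 50 after the start, in GRCm38.p6, and capitals mark a motif found in it.

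Fabp7, chr10:57784673-57784972, plus strand: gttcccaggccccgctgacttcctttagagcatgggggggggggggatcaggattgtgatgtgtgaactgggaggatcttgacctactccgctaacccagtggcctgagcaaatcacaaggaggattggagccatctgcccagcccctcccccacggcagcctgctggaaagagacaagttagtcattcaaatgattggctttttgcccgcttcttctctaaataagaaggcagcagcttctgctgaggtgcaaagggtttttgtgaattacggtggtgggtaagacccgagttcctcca

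Zfp42, chr8:43306960-43307259, minus strand: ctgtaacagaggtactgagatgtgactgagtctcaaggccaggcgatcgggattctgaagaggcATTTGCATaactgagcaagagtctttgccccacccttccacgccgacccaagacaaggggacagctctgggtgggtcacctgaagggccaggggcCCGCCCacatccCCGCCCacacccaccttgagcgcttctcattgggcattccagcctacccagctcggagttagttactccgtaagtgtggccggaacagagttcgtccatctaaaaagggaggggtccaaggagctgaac

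Both strands were searched for 5 motifs that do not overlap in these windows: the POU octamer ATGCAAAT, the Sox motif ACAAAG, the GC box GGGCGG, the TATA box TATAAA and the E-box CAGCTG. The Zfp42 window held the octamer at -186 to -179 from the start and GC boxes at -91 to -86 and -79 to -74, while none of these letters occurred in the Fabp7 window. The octamer was in 2.0% of 1455 promoters of genes that rose at least 2-fold and in 1.3% of 1067 of those that fell, against 1.6% of 19177 promoters of measured genes and 1.7% of all 32851. The GC box was in 58.1% of the rising and 57.5% of the falling set, against 49.2% of measured genes. The Sox motif was in 17.1% and 16.1% of the same sets, against 16.5%.

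**Figure D2:**
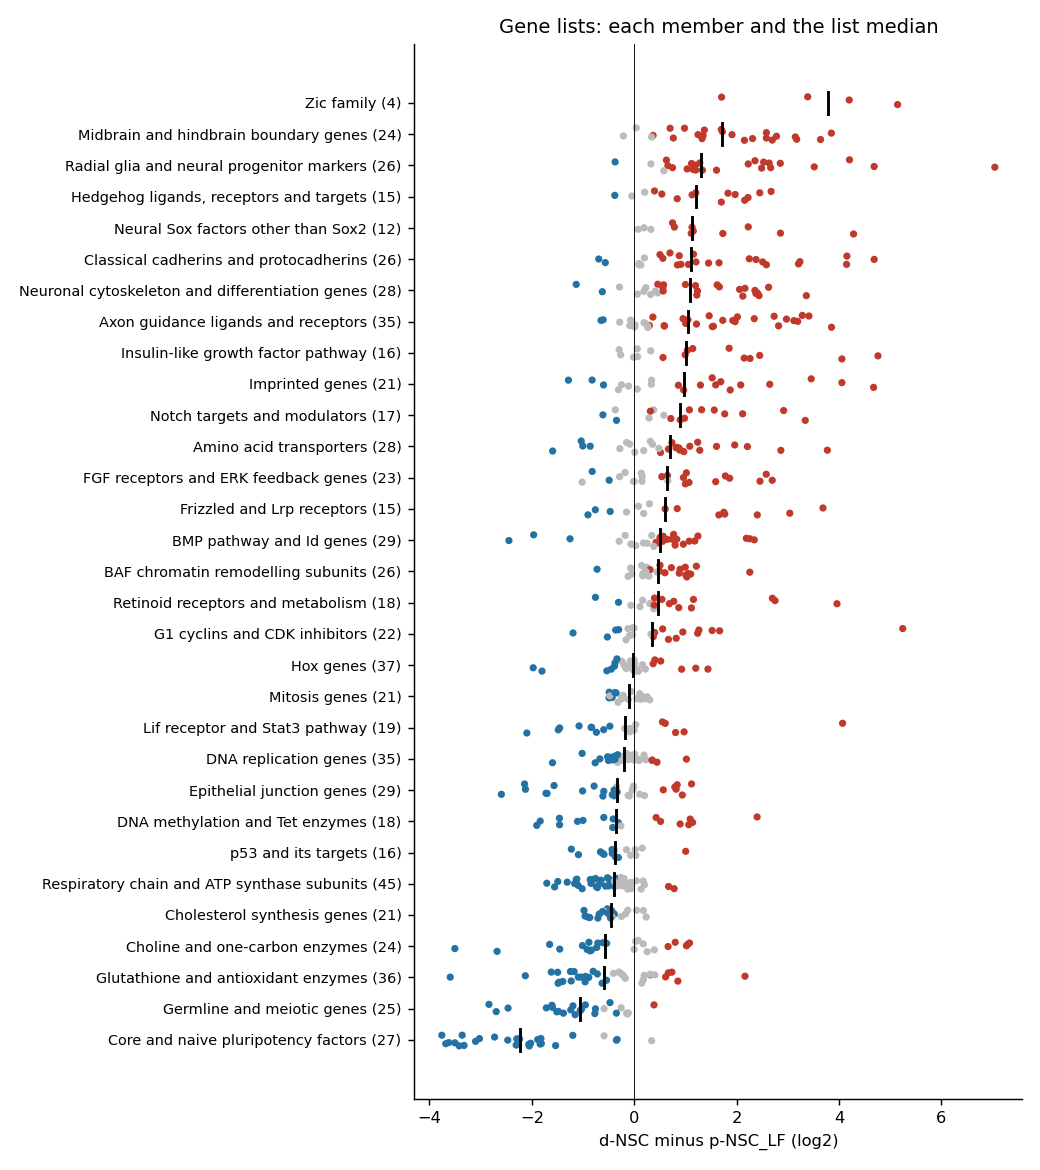
Difference in log2 intensity, d-NSC minus p-NSC_LF, of every measured member of 31 gene lists, with the number measured in brackets, red for members that rose, blue for those that fell and grey for those not called. Black bars are list medians, from 3.79 for the Zic family at the top to -2.24 for core and naive pluripotency factors at the bottom.

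Among transcription factors, all 4 Zic genes measured rose, with a median of 3.79. The rise of Zic5 was 3.39 ± 0.31 on 1 probe set and 0.61 on its other, with 2.00 for their mean. Zic1 had log2 levels of 11.95 and 11.89 in d-NSC, against 6.85 and 6.71 in p-NSC_LF, with 10.01 on the CNS-NSC arrays. Of 12 neural Sox factors other than Sox2, 9 rose and 0 fell (median 1.12). Sox11, a factor of immature neurons, measured 12.32 and 12.18 in d-NSC, against 8.09 and 7.85 in p-NSC_LF, and Sox4, its relative, 10.75 and 10.52 in d-NSC, against 7.90 and 7.66 in p-NSC_LF. Of 16 proneural helix-loop-helix factors 9 rose and 0 fell (median 0.41), led by the partner protein Tcf12 at 2.53 ± 0.15 and the neuronal factor Neurod4 at 2.35 ± 0.14. Of 28 neuronal cytoskeleton and differentiation genes 19 rose and 2 fell (median 1.10), and the neuron marker Stmn2 was 1 of the 2, with a fall of 1.13 ± 0.15.

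Regional factors of the midbrain and hindbrain rose at 21 of 24 genes (median 1.71) and those of the forebrain at 10 of 20 (median 0.55). Nkx2-9, a ventral neural tube factor, rose by 3.85 ± 0.12. En2, a midbrain-hindbrain homeodomain factor, had log2 levels of 11.31 and 11.14 in d-NSC, against 8.09 and 8.02 in p-NSC_LF, and the forebrain factor Fezf2 9.37 and 9.47 in d-NSC, against 7.02 and 7.23 in p-NSC_LF. All 3 were higher on both d-NSC arrays. Of 37 Hox genes, which pattern the body axis from the hindbrain back, 6 rose and 7 fell (median -0.02). The rises included the hindbrain genes Hoxa2 at 1.44 ± 0.13 and Hoxb2 at 1.20 ± 0.15. The falls included 2 neighbouring posterior genes: Hoxc12 had 6.81 and 7.29 in d-NSC, against 8.94 and 9.11 in p-NSC_LF, and Hoxc13 had 6.60 and 6.33 in d-NSC, against 8.33 and 8.21 in p-NSC_LF, with both higher in each p-NSC_LF culture. The 2 genes stood at 9.16 and 8.19 on the p-NSC_L arrays and at 7.43 and 7.31 on the ESC arrays.

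Of 33 forkhead factors 14 rose and 2 fell (median 0.17). Foxp2, a factor of the developing brain, rose by 2.39 ± 0.16, Foxa1, a factor of endoderm and floor plate, by 2.16 ± 0.15 and Foxb1, a hypothalamic and midbrain factor, by 1.84 ± 0.13, while the pluripotency and neural crest factor Foxd3 fell by 1.72 ± 0.16. Of 20 neural crest and ectoderm factors 11 rose and 5 fell (median 0.41). Members of the AP-2 family moved in opposite directions: Tfap2b had log2 levels of 9.02 and 9.10 in d-NSC, against 6.19 and 6.19 in p-NSC_LF, while Tfap2a had 7.62 and 7.45 in d-NSC, against 10.02 and 9.73 in p-NSC_LF. Tfap2c fell by 1.03 ± 0.18. Of 23 cilia and centriole genes 5 rose and 4 fell (median 0.15), with the RFX factors Rfx4 and Rfx2 at 3.52 ± 0.10 and -1.53 ± 0.10.

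Notch signalling passes between touching cells and holds back the differentiation of neural progenitors. Of 11 receptors and ligands 5 rose and 1 fell (median 0.52), and of 17 targets and modulators 11 rose and 2 fell (median 0.90). The ligand Jag1 had log2 levels of 11.17 and 11.18 in d-NSC, against 8.09 and 8.01 in p-NSC_LF, and the ligand Dll1 9.05 and 9.17 in d-NSC, against 6.95 and 7.00 in p-NSC_LF. Maml2, a coactivator of the Notch intracellular domain, measured 9.96 and 9.98 in d-NSC, against 6.67 and 6.59 in p-NSC_LF, and the difference of 3.34 on this probe set compares with 1.05 on its other and 2.19 for their mean. Its relative Maml3 rose by 2.92 ± 0.26. Both ligands and both coactivators were higher in each d-NSC culture. Hey1, a Notch target, rose by 2.12 ± 0.13, and Dner, a Notch ligand of neurons, fell by 0.90 ± 0.13. The targets Hes1 and Hes5, chosen after their values were seen, differed by 0.38 and 0.58 and were not called.

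Of 15 hedgehog genes 12 rose and 1 fell (median 1.20). Hhip, which binds hedgehog ligands at the surface and is a target of the pathway, had log2 levels of 10.69 and 10.65 in d-NSC, against 8.01 and 7.99 in p-NSC_LF. The coreceptor Boc measured 10.31 and 10.34 in d-NSC, against 8.12 and 8.08 in p-NSC_LF. Gli3, the main transcriptional repressor of the pathway, measured 10.96 and 10.97 in d-NSC, against 8.51 and 8.52 in p-NSC_LF. The groups did not overlap for the 3 genes, as for 72.6% of all genes, and the 3 were picked for large called rises.

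Wnt pathway genes were counted as ligands, receptors and inhibitors. Of 19 ligands 8 rose, 0 fell and 11 were not called (median 0.24), of 15 receptors 8 rose and 3 fell (median 0.60), and of 26 antagonists and feedback genes 13 rose and 5 fell (median 0.32). Wnt1, the ligand of the midbrain-hindbrain boundary, had log2 levels of 10.24 and 10.30 in d-NSC, against 6.68 and 6.59 in p-NSC_LF, and Wnt5a, a ligand of the noncanonical branch, 9.29 and 9.31 in d-NSC, against 6.72 and 6.69 in p-NSC_LF. The receptor Fzd3 measured 11.25 and 11.34 in d-NSC, against 7.74 and 7.49 in p-NSC_LF. Fzd2 rose by 3.04 ± 0.11 and Fzd4 by 2.40 ± 0.11, whereas Fzd5 fell by 0.90 ± 0.11. Among inhibitors Frzb, a secreted decoy of Wnt ligands, rose by 3.41 ± 0.11, Dkk1, which blocks the Lrp coreceptors, by 3.47 ± 0.12 and Nkd1, an intracellular inhibitor, by 3.15 ± 0.20. Sfrp4, another secreted decoy, fell by 1.64 ± 0.14.

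The 2 FGF ligands that moved most did so in opposite directions. Fgf4, a ligand made by ES cells, had log2 levels of 8.76 and 8.83 in d-NSC, against 11.87 and 11.76 in p-NSC_LF. Fgf15, a ligand of the embryonic brain, had 12.43 and 12.48 in d-NSC, against 8.27 and 8.31 in p-NSC_LF. The 2 genes are neighbours on chromosome 7 among the protein-coding genes measured. Of 22 FGF ligands 10 rose and 1 fell (median 0.26), and of 23 receptors and ERK feedback genes 12 rose and 2 fell (median 0.65). Fgfr2 measured 9.76 and 9.74 in d-NSC, against 7.36 and 7.22 in p-NSC_LF, and the feedback inhibitors Spry1 and Spred3 rose by 2.69 ± 0.13 and 2.58 ± 0.13. Etv5, an ERK-responsive factor that is also active in ES cells, fell by 0.82 ± 0.14.

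EGF was listed only for d-NSC, and its receptor family changed unevenly: 7 of 17 genes rose and 4 fell (median 0.17). Erbb4, a receptor of neuregulins, had log2 levels of 10.70 and 10.65 in d-NSC, against 6.60 and 6.86 in p-NSC_LF. Egfr itself measured 7.91 and 7.76 in d-NSC, against 8.13 and 8.29 in p-NSC_LF, and its mean on the CNS-NSC arrays was 12.28. The fall of 0.37 ± 0.11 between the culture groups was not called without d-NSC replicate 2 or without p-NSC_LF replicate 2 (adjusted p = 0.17 by limma in each case). Erbb3 fell by 1.53 ± 0.12, and Errfi1, an intracellular inhibitor of the receptor, rose by 1.07 ± 0.15.

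Lif was listed only for p-NSC_LF, and of 19 genes of its pathway 5 rose and 9 fell (median -0.19). Socs3, a target of Stat3 and its feedback inhibitor, had log2 levels of 8.25 and 8.25 in d-NSC, against 10.36 and 10.33 in p-NSC_LF. For Socs3 the difference was -2.10 on this probe set and -0.87 on its other. The receptor Lifr measured 9.43 and 9.42 in d-NSC, against 10.81 and 10.96 in p-NSC_LF, and the kinase Tyk2 fell by 1.48 ± 0.10. Cntfr, the receptor subunit for ciliary neurotrophic factor that joins the same signalling complex, had 12.32 and 12.14 in d-NSC, against 8.21 and 8.11 in p-NSC_LF. Socs3 and Lifr were thus lower and Cntfr higher in both d-NSC cultures. Of 29 genes of BMP signalling, which acts beside Lif in ES cells, 17 rose and 3 fell (median 0.50). The ligands split, with 10.01 and 9.86 in d-NSC, against 11.82 and 11.97 in p-NSC_LF for Bmp4 and a rise of 2.34 ± 0.16 for Bmp5 and 2.26 ± 0.11 for Bmp2. Smad7, the inhibitory Smad, fell by 2.45 ± 0.19, and of the Id factors, which block helix-loop-helix proteins, Id2 rose by 2.19 ± 0.21 and Id4 fell by 1.25 ± 0.23. Of 9 genes of the related Nodal pathway 3 rose and 4 fell (median -0.35), with the Nodal antagonists Cer1 and Lefty2 at 2.93 ± 0.12 and -1.74 ± 0.25.

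Retinoid genes rose at 11 of 18 and fell at 2 (median 0.47). The carriers Crabp1 and Crabp2, which bind retinoic acid inside the cell, were among the larger changes: Crabp2 had log2 levels of 11.89 and 11.88 in d-NSC, against 7.89 and 7.96 in p-NSC_LF, and Crabp1 had 13.30 and 13.38 in d-NSC, against 10.71 and 10.58 in p-NSC_LF. Cyp26a1, the enzyme that degrades retinoic acid and a target of it, measured 9.07 and 9.29 in d-NSC, against 6.38 and 6.49 in p-NSC_LF. On the CNS-NSC arrays the 3 genes were at 7.45, 8.48 and 6.57, below both d-NSC cultures. The receptor gene Rara fell by 0.76 ± 0.11.

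Of 16 genes of the insulin-like growth factor pathway 10 rose and 0 fell (median 1.02). Igf2, an imprinted growth factor, had log2 levels of 12.31 and 12.21 in d-NSC, against 8.27 and 8.14 in p-NSC_LF, and means of 8.19, 8.13 and 8.29 on the CNS-NSC, p-NSC_L and ESC arrays. Only the 2 d-NSC arrays of the 10 were above 9 for this gene. Irs4, an adaptor of the receptor, rose by 2.45 ± 0.15. Of 21 imprinted genes 12 rose and 3 fell (median 0.96), with the hydrolase-like gene Mest at 3.46 ± 0.11 and the CDK inhibitor gene Cdkn1c at 1.52 ± 0.27, while Rian, a noncoding RNA of the Dlk1 and Meg3 cluster, fell by 1.29 ± 0.18.

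**Figure D3:**
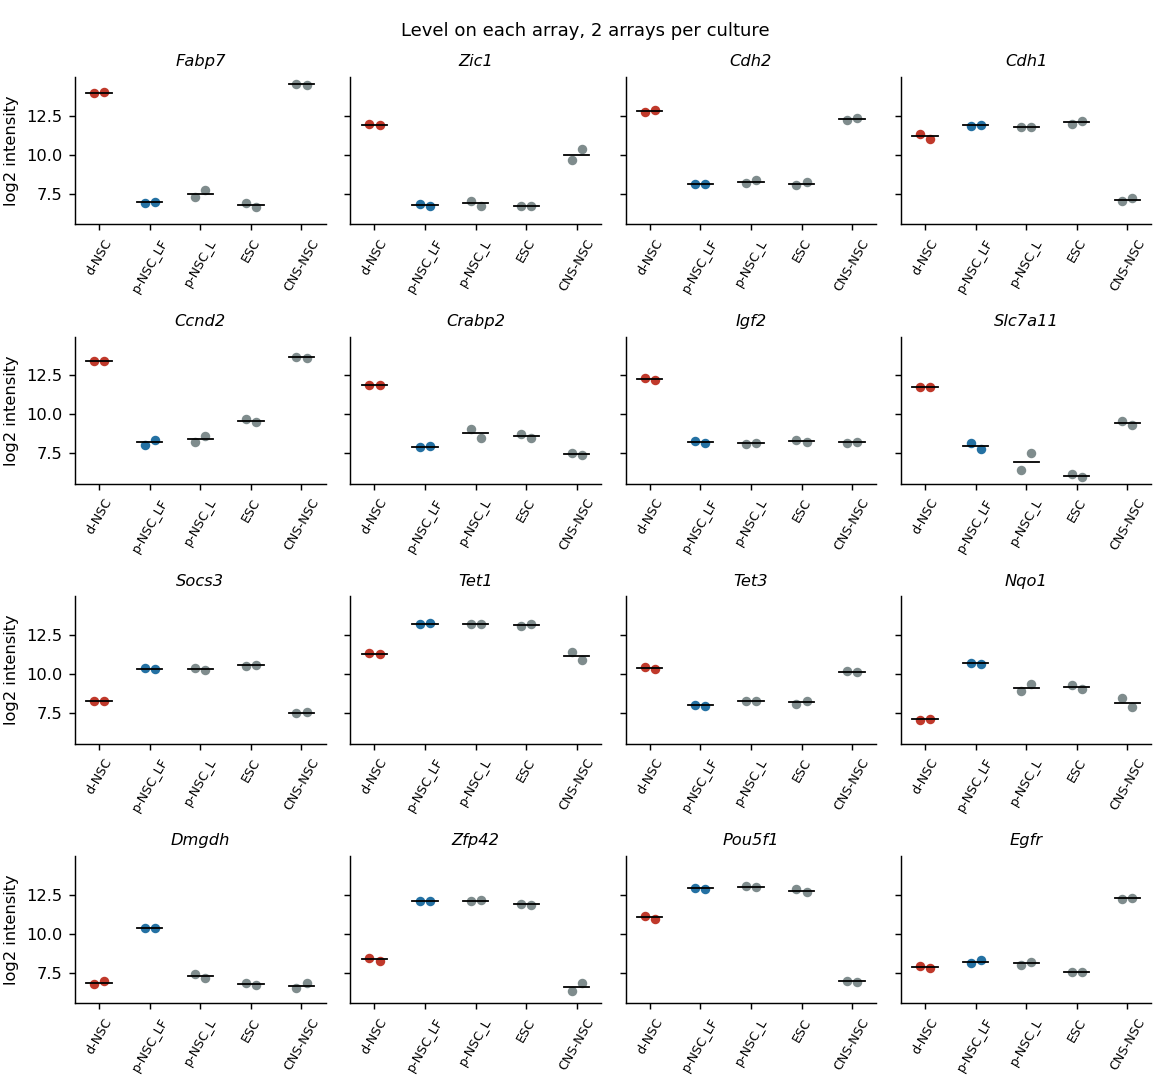
Log2 intensity of 16 genes on each array, with 2 points per culture and a bar at their mean, d-NSC in red, p-NSC_LF in blue and the other cultures in grey. Igf2 and Crabp2 are high only in d-NSC, Cdh1 stays above 11 in d-NSC but lies near 7 in CNS-NSC, and Dmgdh is high only in p-NSC_LF.

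A predicted noncoding gene, chosen after its values were seen, gave the rise next in size to Fabp7. Gm32061, a long noncoding RNA that the RefSeq table lists beside Ndn on chromosome 7, had log2 levels of 11.37 and 11.27 in d-NSC, against 5.29 and 4.82 in p-NSC_LF, and rose by 6.26 ± 0.17 (adjusted p = 1.8e-08 by limma). Its means were 5.30, 5.11 and 5.18 on the CNS-NSC, p-NSC_L and ESC arrays, all below the arrays' lower quartile. The imprinted genes Ndn and Magel2 on the same side of it, chosen in the same way, rose by 1.87 ± 0.28 and 0.86 ± 0.15.

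Cadherins mostly rose, while epithelial junction genes fell more often than they rose. Of 26 cadherins and protocadherins 20 rose and 2 fell (median 1.11). Cdh2, the neural cadherin, had log2 levels of 12.75 and 12.85 in d-NSC, against 8.12 and 8.12 in p-NSC_LF. Cdh1, the epithelial cadherin of ES cells, had 11.35 and 11.02 in d-NSC, against 11.86 and 11.90 in p-NSC_LF, a fall of 0.69 ± 0.13. Both cadherins were therefore above 11 on each d-NSC array, while Cdh1 averaged 7.11 on the CNS-NSC arrays. Cdh11, a mesenchymal cadherin, rose by 4.15 ± 0.24, and Pcdh18, a protocadherin, by 4.15 ± 0.23. Of 29 epithelial junction genes 6 rose and 14 fell (median -0.33). The tight junction gene Cldn4 measured 9.03 and 9.01 in d-NSC, against 11.69 and 11.54 in p-NSC_LF, and the desmosomal cadherin Dsg2 7.86 and 7.62 in d-NSC, against 9.81 and 9.93 in p-NSC_LF. St14, an epithelial surface protease, fell by 2.14 ± 0.11, whereas the tight junction genes Ocln and Marveld2 rose by 1.12 ± 0.13 and 0.94 ± 0.14.

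Among 29 splicing regulators of epithelial and neural fate 18 rose and 3 fell (median 0.37). The neuronal RNA-binding genes Elavl4, Celf2 and Nova1 rose by 2.16 ± 0.26, 2.08 ± 0.11 and 1.76 ± 0.13. For Celf2 the other probe set rose by 0.61, and the mean of both by 1.35. Of the epithelial regulators, Rbm47 had log2 levels of 8.35 and 8.10 in d-NSC, against 10.71 and 10.73 in p-NSC_LF, and Esrp2 fell by 0.67 ± 0.11. Esrp1, chosen after its values were seen, moved the other way, with 10.39 and 10.26 in d-NSC, against 8.54 and 8.67 in p-NSC_LF.

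Matrix genes showed both directions. Of 30 laminins, nidogens and integrins 8 rose and 9 fell (median 0.04), and of 38 collagens 6 rose and 1 fell (median 0.10). Itgb8, an integrin that frees TGF-beta and is known from neuroepithelium, had log2 levels of 10.98 and 11.04 in d-NSC, against 6.99 and 6.89 in p-NSC_LF. The basement membrane genes Nid1, Nid2 and Hspg2 (nidogens and perlecan) fell by 1.57 ± 0.22, 1.63 ± 0.16 and 1.76 ± 0.13. Of 26 proteoglycan genes 16 rose and 4 fell (median 0.58). Gpc6, a glypican, rose by 3.22 ± 0.11, while Sdc4, a syndecan, measured 9.49 and 9.44 in d-NSC, against 12.20 and 11.93 in p-NSC_LF. Of 25 fibroblast and stromal genes 13 rose and 2 fell (median 0.55). Dcn, the matrix proteoglycan decorin, had 9.54 and 9.54 in d-NSC, against 7.29 and 7.24 in p-NSC_LF, and the smooth muscle actin Acta2 9.92 and 10.02 in d-NSC, against 7.52 and 7.67 in p-NSC_LF. The fibroblast markers given above moved with these genes, and their part was not tested.

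Guidance genes, which steer growing axons and migrating cells, rose widely: 24 of 35 semaphorin, netrin, slit and receptor genes rose and 2 fell (median 1.05). Dcc, the netrin receptor, had log2 levels of 10.49 and 10.36 in d-NSC, against 6.66 and 6.49 in p-NSC_LF. The semaphorins Sema6a and Sema3a rose by 3.41 ± 0.13 and 3.28 ± 0.20, and Sema3b fell by 0.61 ± 0.10. Of 21 ephrins and Eph receptors 10 rose and 4 fell (median 0.23). The ligand Efnb2 measured 11.78 and 11.77 in d-NSC, against 7.11 and 7.47 in p-NSC_LF, and Efna5 and the receptor Epha3 rose by 3.48 ± 0.15 and 3.20 ± 0.13. The receptor Epha4 fell by 1.52 ± 0.14. Of 32 voltage-gated channel genes 17 rose and 2 fell (median 0.46), none by more than 1.33 ± 0.14, the rise of the calcium channel gene Cacna1b.

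Chromatin genes moved in both directions within families. The Tet enzymes oxidise methylated cytosine. Tet1 had log2 levels of 11.35 and 11.28 in d-NSC, against 13.19 and 13.26 in p-NSC_LF, Tet2 had 9.62 and 9.47 in d-NSC, against 10.92 and 11.08 in p-NSC_LF, and Tet3 had 10.44 and 10.32 in d-NSC, against 8.04 and 7.92 in p-NSC_LF. Tet1 and Tet2 were lower and Tet3 higher in both d-NSC cultures. The 3 genes averaged 11.16, 9.89 and 10.16 on the CNS-NSC arrays and 13.16, 11.46 and 8.18 on the ESC arrays. Of the DNA methyltransferase family Dnmt3a rose by 1.09 ± 0.18 and the cofactor Dnmt3l fell by 1.84 ± 0.17. Over 18 genes of DNA methylation 7 rose and 10 fell (median -0.36).

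Of 29 Polycomb subunits 9 rose and 8 fell (median -0.11). The core subunits of Polycomb repressive complex 2 moved unevenly. Eed had log2 levels of 10.16 and 10.26 in d-NSC, against 11.66 and 11.70 in p-NSC_LF, and Suz12 had 11.61 and 11.70 in d-NSC, against 12.91 and 13.01 in p-NSC_LF, and both fell. For Eed the difference was -1.48 on this probe set and -0.27 on its other, with -0.87 for their mean. Ezh2, the catalytic subunit, chosen after its values were seen, rose by 0.70 ± 0.13, and the histone-binding subunits Rbbp4 and Rbbp7, chosen in the same way, differed by 0.14 ± 0.10 and -0.11 ± 0.12 and were not called. Within Polycomb repressive complex 1 the chromobox genes Cbx7 and Cbx2 moved apart, at -1.07 ± 0.11 and 1.06 ± 0.11, and Bmi1 and Yaf2 rose by 1.01 ± 0.22 and 2.48 ± 0.12. Of 26 BAF remodelling subunits 14 rose and 1 fell (median 0.47). The ATPase gene Smarca2 measured 9.59 and 9.49 in d-NSC, against 7.21 and 7.36 in p-NSC_LF, and Smarcc2 rose by 1.21 ± 0.11. Of 10 genes of the Lin28, Hmga and Igf2bp group 7 rose and 1 fell (median 0.65), with Lin28b, which blocks maturation of let-7 miRNAs, at 10.27 and 10.39 in d-NSC, against 8.08 and 8.08 in p-NSC_LF. Trim71, a let-7 target, fell by 0.65 ± 0.13.

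The largest changes in the 3 lists of cell cycle genes were those of D-type cyclins. Of 22 G1 cyclins, CDKs and inhibitors 11 rose and 4 fell (median 0.35). Besides Ccnd2, Ccnd1 had log2 levels of 11.84 and 11.84 in d-NSC, against 10.18 and 10.17 in p-NSC_LF. The CDK inhibitor Cdkn1c had 9.37 and 9.32 in d-NSC, against 7.76 and 7.88 in p-NSC_LF, and the pocket protein gene Rbl2 fell by 1.20 ± 0.13. Of 35 replication genes 4 rose and 14 fell (median -0.20), with Orc1, the large subunit of the origin recognition complex, at 8.74 and 8.84 in d-NSC, against 10.38 and 10.39 in p-NSC_LF. Gmnn, which blocks relicensing of origins, fell by 1.02 ± 0.13. Of 21 mitosis genes 0 rose and 5 fell (median -0.11), the lowest being the checkpoint kinase gene Bub1b at -0.49 ± 0.09. Of 16 genes of p53 and its targets 1 rose and 9 fell (median -0.38), with Trp53inp1 and Plk2 at -1.23 ± 0.11 and -1.09 ± 0.17.

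Metabolic genes fell more often than they rose in 4 of 6 lists. Of 36 genes of glutathione and antioxidant enzymes 6 rose and 19 fell (median -0.59). Nqo1, a quinone reductase, had log2 levels of 7.05 and 7.12 in d-NSC, against 10.72 and 10.64 in p-NSC_LF. The glutathione transferases Gstm6 and Gsta4 fell by 2.13 ± 0.23 and 1.62 ± 0.17, and since these families hold similar paralogs their probe sets may share signal. Gpx8, a peroxidase of the endoplasmic reticulum, rose by 2.16 ± 0.22. Slc7a11, the cystine transporter that feeds glutathione synthesis, went the other way from most of these enzymes, with 11.77 and 11.73 in d-NSC, against 8.15 and 7.80 in p-NSC_LF. Of 28 amino acid transporters 16 rose and 4 fell (median 0.70), Slc36a4 by 2.86 ± 0.15 and the glycine transporter Slc6a9 by 2.21 ± 0.28.

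Of 24 enzymes of choline and one-carbon metabolism 5 rose and 13 fell (median -0.58). Dmgdh, which oxidises dimethylglycine, had log2 levels of 6.76 and 6.96 in d-NSC, against 10.36 and 10.37 in p-NSC_LF, and means of 6.67, 7.28 and 6.77 on the CNS-NSC, p-NSC_L and ESC arrays. The p-NSC_LF arrays alone were above 10, so for this gene the d-NSC level was near that of the other cultures. Bhmt2 and Bhmt, which use methyl groups of betaine or a related donor to remake methionine, fell by 2.68 ± 0.12 and 1.65 ± 0.13. Over its 3 probe sets the difference of Bhmt ran from -1.69 to -0.55. The serine pathway genes Phgdh, Shmt2 and Mthfd2 rose by 1.04 ± 0.12, 1.08 ± 0.21 and 1.02 ± 0.11.

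Respiratory chain subunits fell at 24 of 45 genes and rose at 2 (median -0.39). Cox6b2, a subunit of cytochrome oxidase best known from testis, had log2 levels of 8.59 and 8.84 in d-NSC, against 10.57 and 10.27 in p-NSC_LF, and Cox7a1, a muscle isoform, 8.26 and 8.13 in d-NSC, against 9.65 and 9.85 in p-NSC_LF. Cox5a, another subunit, had 9.65 and 9.82 in d-NSC, against 11.40 and 11.06 in p-NSC_LF. All 3 were lower on both d-NSC arrays. Of 30 glycolysis and hypoxia genes 9 rose and 7 fell (median 0.08), and the enolase Eno2 of neurons and the lactate dehydrogenase subunit Ldhb moved apart, at 1.81 ± 0.22 and -1.73 ± 0.20. All 13 called genes of 21 cholesterol synthesis genes fell (median -0.46).

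Germline and meiotic genes, many of which ES cells transcribe, fell at 19 of 25 and rose at 1 (median -1.05). Sycp3, a protein of the synaptonemal complex, had log2 levels of 7.79 and 7.80 in d-NSC, against 10.51 and 10.75 in p-NSC_LF. Dazl, a germ cell RNA-binding protein, measured 7.08 and 7.08 in d-NSC, against 9.79 and 9.76 in p-NSC_LF, and Mael, a factor of transposon silencing, 7.55 and 7.61 in d-NSC, against 9.98 and 10.11 in p-NSC_LF. The groups were apart at each of the 3, as at 72.6% of all genes. Of 23 interferon and antigen presentation genes 1 rose and 8 fell (median -0.09), with the membrane protein Ifitm3 at -1.48 ± 0.18. The rise was that of Nlrc5, a regulator of antigen presentation, at 0.36 ± 0.12, a call lost with the mean of its 19 probe sets (adjusted p = 0.966 by limma). Of 18 mesoderm genes 3 rose and 5 fell (median -0.02), among them the adhesion gene Pecam1, which ES cells and endothelium share, at -2.64 ± 0.16, and the receptor Kdr at 1.61 ± 0.10. Of 23 primitive endoderm genes 11 rose and 1 fell (median 0.39), with Sox17 at 8.64 and 8.77 in d-NSC, against 7.05 and 7.09 in p-NSC_LF, and with Gata4 at a difference of 0.04 ± 0.18 that was not called. Of 13 oligodendrocyte lineage genes 2 rose and 0 fell (median 0.08), and of 18 astroglial genes 7 rose and 4 fell (median 0.04).

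The arrays also carry probe sets for miRNA precursors, described here after their values were seen. They pick up the hairpin or the host transcript and not the mature miRNA, and similar hairpins may share signal. Of 296 precursors 39 rose and 28 fell, of which 18 and 4 changed at least 2-fold, and the median difference was 0.02. Over all genes 19.3% rose and 19.3% fell, and 6.92% and 5.32% did so at least 2-fold. Calls in either direction were thus less frequent among precursors than among all genes. RefSeq hairpins were matched for 258 of them. Mature forms of the precursors described next, Mir302a apart, are shown with the seed (bases 2 to 8, which pair with targets) in capitals.

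miR-302b-3p, from Mir302b, chr3:127545275-127545297: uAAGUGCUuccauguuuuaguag
miR-302c-3p, from Mir302c, chr3:127545406-127545427: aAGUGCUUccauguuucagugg
miR-302d-3p, from Mir302d, chr3:127545665-127545687: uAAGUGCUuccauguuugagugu
miR-367-3p, from Mir367, chr3:127545779-127545800: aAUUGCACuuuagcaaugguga
miR-181b-5p, from Mir181b-1, chr1:137966650-137966673, and with the same letters from Mir181b-2: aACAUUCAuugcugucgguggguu
miR-218-5p, from Mir218-1, chr5:48223966-48223986: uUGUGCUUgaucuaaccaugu
miR-15b-5p, from Mir15b, chr3:69009775-69009796: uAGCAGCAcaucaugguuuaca
miR-16-5p, from Mir16-1, chr14:61631936-61631957: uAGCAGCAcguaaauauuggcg

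miR-302b-3p and miR-302d-3p share the seed AAGUGCU, and the seed of miR-302c-3p holds 6 of the same letters moved by 1 position. miR-15b-5p and miR-16-5p share the seed AGCAGCA. The letters of miR-218-5p and miR-16-5p also occur in Mir218-2 and Mir16-2. Neither of those precursors was among the ones called and at least 2-fold apart. The coordinates are those of RefSeq on GRCm38.p6, on the plus strand except for Mir16-1.

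The miR-302 cluster, known from pluripotent cells and the early embryo, rose in d-NSC. Mir302a had log2 levels of 7.05 and 7.42 in d-NSC, against 4.42 and 4.20 in p-NSC_LF, Mir302d had 7.31 and 7.39 in d-NSC, against 4.47 and 4.46 in p-NSC_LF, and Mir367 had 5.57 and 5.50 in d-NSC, against 3.91 and 3.75 in p-NSC_LF. Mir302c and Mir302b rose by 2.77 ± 0.27 and 2.68 ± 0.16, so all 5 precursors of the cluster were higher in both d-NSC cultures. The means of Mir302a were 4.19, 4.20 and 4.12 on the CNS-NSC, p-NSC_L and ESC arrays, near the p-NSC_LF level. Larp7, the gene whose span holds the cluster, had 11.25 and 11.14 in d-NSC, against 10.73 and 10.80 in p-NSC_LF, a rise of 0.43 ± 0.12.

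Both precursors of miR-181b also rose, Mir181b-1 with log2 levels of 8.47 and 8.52 in d-NSC, against 5.25 and 5.13 in p-NSC_LF, and Mir181b-2 with 8.67 and 8.75 in d-NSC, against 5.82 and 6.03 in p-NSC_LF. Nr6a1, whose span holds Mir181b-2, rose by 1.71. Mir218-1, which lies within Slit2, rose by 2.01 ± 0.24, and Slit2 itself by 1.52 ± 0.25. The 2 precursors shown with the seed AGCAGCA fell. Mir15b had 5.52 and 5.78 in d-NSC, against 7.16 and 7.01 in p-NSC_LF. Mir16-1 had 6.32 and 6.46 in d-NSC, against 7.32 and 7.62 in p-NSC_LF. Smc4, whose span holds Mir15b, differed by -0.14 and Dleu2, whose span holds Mir16-1, by -0.04, and neither was called. Levels of most of these precursors lay under the array median, where differences are less certain in size.

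**Figure D4:**
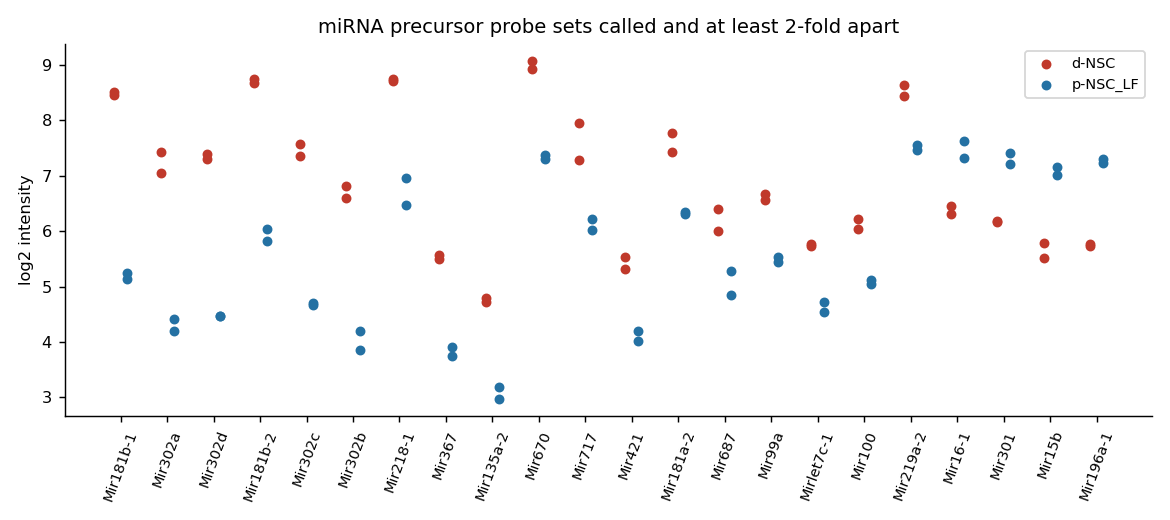
Log2 intensity on each array of the 22 miRNA precursors called and at least 2-fold apart, d-NSC in red on the left and p-NSC_LF in blue on the right of each position. The 18 precursors that rose stand on the left and the 4 that fell at the right end.

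The step was then set against the difference between CNS-NSC and ESC, which uses 4 other arrays. Those groups differ in mouse strain, serum and feeders as well as in cell type. They also differ in medium, since Lif is listed for ESC only and EGF, FGF and heparin for CNS-NSC only. Lif removal and added EGF are thus shared with the step, so medium and cell type cannot be told apart in the overlaps below. Hprt, a purine salvage enzyme made by nearly every cell and chosen here after its values were seen, had log2 levels of 6.99 and 6.75 on the ESC arrays, while the other 8 arrays, those of the R1-derived cultures included, lay between 10.45 and 11.60. Xist, the noncoding RNA of the inactive X chromosome, was far higher on the CNS-NSC than on the ESC arrays, with levels given at the end. The part of the Hprt and Xist gaps in the comparison was not tested. Gaps of 2-fold or more separated the 2 CNS-NSC arrays from each other at 277 genes and the 2 ESC arrays at 30, whereas the SE comes from a spread shared by all 5 groups. Of 1379 genes that rose at least 2-fold in d-NSC, 709 (51.4%) were also called and at least 2-fold higher in CNS-NSC, 39.7% of the 1786 such genes there, which made up 8.96% of all genes tested. Of 1060 that fell, 592 (55.8%) were at least 2-fold lower in CNS-NSC, 38.7% of the 1531 such genes (7.68% of all). Opposite changes of that size were found at 52 of the rising genes (3.8%) and 25 of the falling ones (2.4%), against the same 7.68% and 8.96% of all genes. Calls of any size made up 43.8% of the genes in the CNS-NSC and ESC comparison.

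The difference between the 2 differences was called at 5787 genes (29%), above 0 at 2931 (14.7%) and below 0 at 2856 (14.3%). A value above or below 0 can come from either comparison. Ptprz1, Olig1, Bcan and Egfr were among the 10 genes that the naming rule took for the largest called difference below 0. Ptprz1, a receptor phosphatase of radial glia, differed by 1.12 ± 0.15 in the step and by 7.26 ± 0.15 in the embryo comparison, a difference of -6.14 ± 0.21 (adjusted p = 9.6e-08 by limma). Olig1, an oligodendrocyte lineage factor, differed by 0.15 ± 0.15 and 5.68 ± 0.15, and Bcan, a brain proteoglycan, by -0.26 ± 0.16 and 5.15 ± 0.16. For Egfr the values were -0.37 ± 0.11 and 4.76 ± 0.11. For each of the 4 genes the CNS-NSC arrays stood far above the ESC arrays, and the d-NSC and p-NSC_LF arrays lay much closer to each other.

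Genes whose difference of differences was called above 0 included Igf2bp1, Trh, Fgf15 and Emb. Igf2bp1, an oncofetal RNA-binding protein, differed by 0.95 ± 0.10 in the step and by -5.00 ± 0.10 in the embryo comparison. Trh, the gene of thyrotropin-releasing hormone, differed by -0.05 ± 0.13 and -5.66 ± 0.13, and was not called in the step (adjusted p = 0.83 by limma). Fgf15, described above, differed by 4.16 ± 0.12 and -1.45 ± 0.12, and Emb, the cell surface protein embigin, by 2.29 ± 0.24 and -5.31 ± 0.24.

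**Figure D5:**
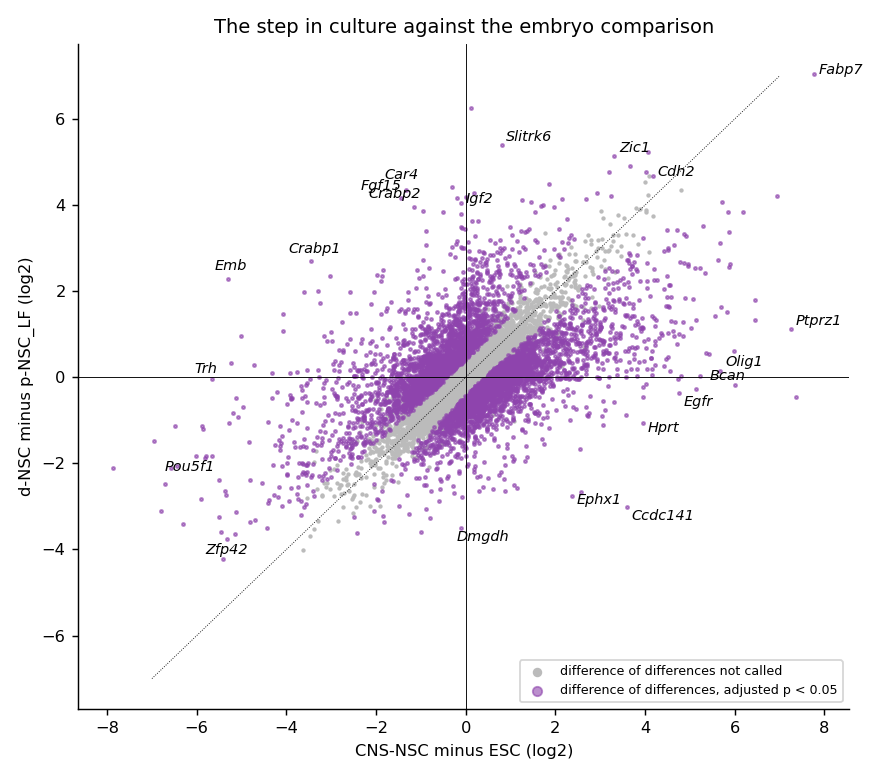
Difference in log2 intensity of each gene, d-NSC minus p-NSC_LF on the vertical axis against CNS-NSC minus ESC on the horizontal axis, with the 5787 genes whose difference of differences was called in purple and a dotted line at equal differences. Fabp7, Zic1 and Cdh2 lie near the line, Ptprz1, Olig1 and Egfr far to its right and Emb and Crabp1 to its left.

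Neighbouring genes were also compared, after the values were seen and using gene order in the RefSeq table. There were 18543 pairs of protein-coding genes adjacent among those measured, and 428 had both members called and at least 2-fold changed. In 292 of these (68.2%) both changed in the same direction, 168 upward and 124 downward, against 136 in opposite directions. Single genes changed that much at 12.2% of all tested, with 6.92% rises and 5.32% falls. The count and share for genes paired without regard to order were not computed. Pairs include duplicated genes with similar sequence and are not independent. On chromosome 8 Triml1, Triml2 and Zfp42 fell by 2.93 ± 0.17, 3.59 ± 0.13 and 3.76 ± 0.16. On chromosome 13 Bhmt, Bhmt2 and Dmgdh lie side by side and all fell. On chromosome 3 Lrrc34, Lrriq4 and Lrrc31 differed by -4.22 ± 0.24, -2.34 ± 0.19 and -3.53 ± 0.28, and on the same chromosome Pcdh18 and Slc7a11 rose together.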

How the data were processed

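RNA from mouse cultures of 5 kinds was hybridised to 10 Affymetrix whole-transcript arrays. The authors deposited a log2 intensity of 35556 probe sets on each array, made with RMA and Partek per the submitters' processing notes, which give no versions. RMA corrects background, brings the distributions of the arrays together and combines the probes of a set, and so compresses the differences of dim probe sets. No header states the log base, which was inferred from a range of 2.07 to 14.74. No detection calls were used, and the sources used here name no genome build.

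Probe sets were named through the platform annotation: 21789 had 1 gene symbol, 1621 several and 12146 none. Only the 21789 were tested, and 21698 matched the RefSeq gene table with 0 symbols changed. The probe set with the highest mean stood for each of 999 genes with several, giving 19938 genes, and 0 pairs of arrays held identical values. Sequences and gene order are those of RefSeq on GRCm38.p6.

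With limma 3.58.1 (R 4.3.3), each of the 5 groups was given a mean in a fit to the 10 arrays, with Benjamini-Hochberg adjustment over all genes and a threshold of 0.05. The fit was tested on simulated data. Python 3.11.15, pandas 2.3.3 and matplotlib 3.10.9 prepared tables and plots.

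The members and the 61 gene lists, with 1360 of 1446 entries measured, were chosen with earlier results of these data known. Genes named are the 25 largest rises and 25 largest falls among called genes whose groups do not overlap, leaving out predicted names and genes whose higher group mean lay below the median gene (8.1). The 3 largest called rises and falls of each list were added, or where none was called the member that differed most, together with the cell type markers and the 10 largest called differences of differences in each direction. The text names a part of these and says where a gene was chosen after its values were seen. Alternatives were a fit of the 4 arrays alone, weights on arrays, 2 other normalizations, other models of the variance, filters on the dimmer 30% or 50% of genes, a replicate block, the mean of a gene's probe sets, and leaving out in turn each array of d-NSC, p-NSC_LF, CNS-NSC and ESC.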

Additional observations from a re-analysis of the deposited data

Results flagged for a closer look

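A set of genes changed by at least 2-fold in opposite directions in the step from p-NSC_LF to d-NSC and in the comparison of CNS-NSC with ESC, with the difference of the log2 differences itself called by limma. Leaving out predicted names and dim genes there were 74 of them, of which 49 rose and 25 fell in d-NSC. The 10 with the largest difference of differences are given, ± SE with n = 2 arrays per group. Emb, the surface protein embigin, differed by 2.29 in the d-NSC step and by -5.31 between CNS-NSC and ESC, a difference of 7.60 ± 0.34. For Ccdc141, a coiled-coil protein, the values were -3.01 and 3.60, a difference of -6.61 ± 0.17. Crabp1, the retinoic acid carrier, differed by 2.70 in the d-NSC step and by -3.45 between CNS-NSC and ESC, a difference of 6.15 ± 0.17. For these 3 genes, as for Car4 and Fgf15, the groups did not overlap in either comparison. For Car4, the carbonic anhydrase, the values were 4.36 and -1.32, a difference of 5.68 ± 0.20. Fgf15, the FGF ligand, differed by 4.16 in the d-NSC step and by -1.45 between CNS-NSC and ESC, a difference of 5.61 ± 0.17. For Gpc3, a glypican, the values were 1.98 and -3.60, a difference of 5.59 ± 0.22. Slc27a2, a fatty acid transporter, differed by 1.47 in the d-NSC step and by -4.08 between CNS-NSC and ESC, a difference of 5.55 ± 0.20. For Sulf1, a heparan sulphate sulfatase, the values were 2.34 and -3.02, a difference of 5.36 ± 0.20. The CNS-NSC arrays lay below the ESC arrays at each of these 3 genes. Mdk, the growth factor midkine, differed by 2.01 in the d-NSC step and by -3.30 between CNS-NSC and ESC, a difference of 5.31 ± 0.15. For Car8, a carbonic anhydrase-related protein, the values were -2.66 and 2.58, a difference of -5.24 ± 0.44.

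Probe sets that carry no gene symbol, or several, were left out of every comparison above. Of 12146 probe sets with no symbol, 2101 (17.3%) were called, and 765 were called and at least 2-fold apart, 486 higher and 279 lower in d-NSC. Of 1621 with several symbols, 329 (20.3%) were called and 77 were at least 2-fold apart, 23 higher and 54 lower. No genes are named from them.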

How the results depend on the processing

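The count of 7706 called genes lay between 5706 and 10118 under the alternatives, the count of called genes at least 2-fold apart between 1708 and 2462, the percentage higher in d-NSC among called genes between 46.7% and 52.8%, and the count for the difference of differences between 4260 and 6921, each within 1.5 times its main value. The replicate numbers were not taken to pair the groups, since deviations of same-numbered d-NSC and p-NSC_LF arrays correlated at -0.07 across genes and those of the 10 pairs of groups at -0.11 to 0.38; with them as a block the counts were 7943 and 6071. Without any 1 of the 4 d-NSC and p-NSC_LF arrays, which leaves a lone array assumed to vary like the other groups, 5706 to 5831 genes were called. Leaving out a CNS-NSC or ESC array gave 7341 to 8190. The dimmer 50% of genes left out gave 5855 of 9969. The median of all genes moved to -0.04 at the lowest and 0.01 at the highest. Of 357 genes picked by the naming rule 335 were called, 301 of them under each alternative run, and 34 lost the call under at least 1, among them Egfr and Sox2, while no called gene turned direction. Only 2 arrays per group and probe sets near background limit the size and precision of small differences.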

Other observations

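Hprt, an X-linked purine salvage gene chosen after its values were seen, had log2 levels of 10.50 and 10.53 in d-NSC, 11.60 and 11.56 in p-NSC_LF, 11.07 and 11.40 in p-NSC_L, 10.45 and 11.19 in CNS-NSC, and 6.99 and 6.75 in ESC. The labels give R1 for the ESC arrays and R1-derived for the first 3 of these groups. Xist, the noncoding RNA of the inactive X chromosome, had log2 levels of 5.96 and 6.27 in d-NSC, 6.22 and 6.36 in p-NSC_LF, 12.75 and 12.03 in CNS-NSC, and 6.49 and 6.29 in ESC.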
